A study of Mus musculus with 8 samples.

Results

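Genes that are widely used as internal references for transcript measurements, *Gapdh*, *Ppia*, *Actb*, *Hprt*, *Tbp*, *Ywhaz*, *Gusb* and *Polr2a*, were followed, 8 in all, in the left and right heart field of mouse embryos. They were chosen by name, as the rows of the deposited read count table whose Ensembl identifiers carry these symbols in the GRCm38 annotation, and they make up 8 of 48526 rows. *Polr2b*, the reference gene of the RT-qPCR in the study, was read beside them. The question was how far each of these genes varied between the 2 sides of an embryo and between embryos.

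A reference gene is used to scale other transcripts, so it is useful when its level stays constant between the samples compared. The usual choices take part in tasks that nearly every cell performs: glycolysis, protein folding, the cytoskeleton, purine salvage, transcription, signal adaptor binding and lysosomal degradation. Highly expressed transcripts of this kind have also been copied back into the genome many times as processed pseudogenes, intronless copies of the mRNA, and reads from the parent gene can be identical to reads from such a copy.

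All libraries came from wild-type male C57bl6/J embryos at embryonic day 8.5, stage E8.5f. The heart field, the precursor tissue that feeds the growing heart tube, was micro-dissected and cut at the midline, and each side was sequenced separately for embryos L29-3, L43-5, L46-8 and L49-3. Both libraries of a pair therefore come from the same animal, with 4 pairs and 8 libraries in all. Values are listed throughout with the embryos in the order L29-3, L43-5, L46-8 and L49-3. The values are counts of reads per gene after exclusion of duplicate reads, and per-library levels are given below as counts divided by DESeq2 size factors (normalized counts).

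Total counts ranged from 1147446 to 3520753, and mitochondrial genes held between 1.53% and 1.87% of them. All 10 heart field markers examined had reads in every library, with a summed normalized count between 771 and 1502. Libraries also held transcripts of cardiomyocytes, with a summed count of 6 markers between 508 and 3809, of endothelium between 417 and 721, of foregut endoderm between 680 and 825 and of neural tube between 50.5 and 523. Embryo L49-3 stood apart. The lowest cardiomyocyte sum was that of its left library, and the lowest endothelium and highest neural tube sums were those of its right library. *Tbx5* was at 20.1 and 19.9 in its left and right libraries, against 90 to 164 in the other 6, and *Gata4* at 20.1 and 71.5 against 173 to 335. Other heart field markers were higher there, *Isl1* at 146 and 169.5 against 91.6 to 123. *Six2* and *Fgf10* were highest in its left library, at 133 and 96.0, whereas the libraries of the other embryos reached 82.7 and 69.2. In such bulk samples, fewer cells of a type and less RNA per cell cannot be told apart. Results that rest on L49-3 are given with and without it.

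The coding sequences show how close the copies are. The first set is shown because *Gapdh* had the largest spread of the 8 genes and the most copies. It is a stretch of exon 4 of *Gapdh*, coding positions 345 to 425 counted from 1 at the first base of the start codon (chr6:125162937-125163017, minus strand, GRCm38), beside the 3 processed pseudogenes with the most counts, all on the plus strand of chr5:95862058-95862138, chr11:26786977-26787057 and chr7:51747041-51747121. Capitals mark positions at which *Gapdh* and a copy differ.
Gapdh: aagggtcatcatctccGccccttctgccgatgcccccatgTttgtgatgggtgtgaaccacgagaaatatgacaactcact
Gm5559: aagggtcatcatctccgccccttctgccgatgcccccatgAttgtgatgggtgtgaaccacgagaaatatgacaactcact
Gm12070: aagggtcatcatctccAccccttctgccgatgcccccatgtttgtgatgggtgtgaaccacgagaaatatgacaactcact
Gm7336: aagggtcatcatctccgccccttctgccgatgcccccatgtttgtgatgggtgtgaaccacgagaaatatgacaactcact

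Over all 1002 coding positions of *Gapdh*, stop codon included, *Gm5559* differed by the single substitution T385A and *Gm12070* by G361A, and *Gm7336* had 0 differences. A read that lay within the coding sequence and missed positions 361 and 385 could therefore have come from any of the 4 genes.

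The second set is shown because *Ppia* had the second largest spread. Coding positions 207 to 287 lie in exon 4 (chr11:6419130-6419210, plus strand), and the processed pseudogene *Gm10123* holds the same letters on the plus strand of chr9:96895864-96895944.
Ppia: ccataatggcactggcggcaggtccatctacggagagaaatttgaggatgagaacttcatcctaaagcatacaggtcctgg
Gm10123: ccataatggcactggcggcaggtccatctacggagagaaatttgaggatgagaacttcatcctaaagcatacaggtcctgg

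*Gm10123* matched *Ppia* at all 490 of the positions compared. In contrast, the coding sequences of *Actb* and *Actg1*, the gene of the other cytoplasmic actin, differ at 128 of 1128 positions.

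The primers with which the study measured *Polr2b*, the second largest subunit of RNA polymerase II, each matched its transcript once. The forward primer lies in exon 3 and the reverse primer crosses from exon 4 into exon 5, giving a product of 151 bases on the transcript. Neither had an exact match in the transcripts of another gene, and *Polr2b* had no near-identical gene.
Polr2b forward: agtggagaagttgaagagccg
Polr2b reverse: aaagcggagcagaatacgtga

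The 8 genes covered more than 2 orders of magnitude in level, and all 8 were among the 9744 genes tested, those that reached a normalized count of 20 in 4 or more libraries. Divided by the length of the shortest transcript with the full coding sequence, the mean normalized count per kilobase was 4817 ± 413 (SD, n = 8 libraries) for *Actb*, 914 ± 275 for *Ppia*, 897 ± 35.6 for *Ywhaz*, 237 ± 175 for *Gapdh*, 146 ± 7.10 for *Polr2a*, 53.4 ± 8.04 for *Tbp*, 52.9 ± 11.4 for *Hprt* and 40.7 ± 5.09 for *Gusb*. *Actb* stood above all others. The ranges of mean ± SD overlapped for *Ppia* and *Ywhaz*, for *Gapdh* and *Polr2a*, and for *Tbp*, *Hprt* and *Gusb*. Their order within single libraries was not compared. Lengths mattered for the order, since with the bases of all annotated exons *Tbp* came to 7.44 ± 1.12 per kilobase and *Ywhaz*, at 462 ± 18.4, came before *Ppia*, at 305 ± 91.8. Before division by length, *Actb* had rank 3 among the 9744 genes and *Gapdh* rank 1341.

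*Ywhaz*, *Polr2a* and *Actb* had the smallest spread before counting error was removed. *Ywhaz* (chr15:36770770-36796929, minus strand) encodes 14-3-3 zeta, an adaptor that binds phosphorylated proteins. Its normalized counts were 1772, 1838, 1921 and 1982 on the left and 1937, 1889, 1888 and 2006 on the right. The highest library was 1.13-fold above the lowest and the 2 sides overlapped. The coefficient of variation (CV, the SD as a share of the mean) was 3.97%, where counting error alone gives 2.38%. Of the 9744 tested genes, 124 had a lower CV. After removal of counting error 3.18% was left, a value at the 25.7th percentile of all genes tested.

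*Polr2a* (chr11:69733997-69758637, minus strand) encodes the largest subunit of RNA polymerase II. Its counts were 924, 991, 1029.6 and 1023 on the left and 1044, 948, 996 and 922 on the right. No side was higher throughout, and the CV was 4.86% against 3.29% from counting error. After removal of counting error 3.58% was left, at the 27.1st percentile. *Polr2b* lay between 368 and 425, with a CV of 4.62%, at or under the 5.22% that counting error gives at its depth.

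*Actb* (chr5:142903115-142906754, minus strand) encodes the cytoskeletal beta-actin. Its counts were 7959, 9118, 9669 and 10017 on the left and 9329, 8185, 10064 and 9642 on the right. The lower values were in L29-3 and L43-5, and the sides overlapped. At this depth counting error is small, 1.09%, so that a CV of 8.58% left 8.51% after its removal, a value at the 50.3rd percentile of all genes tested.

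**Figure D1:**
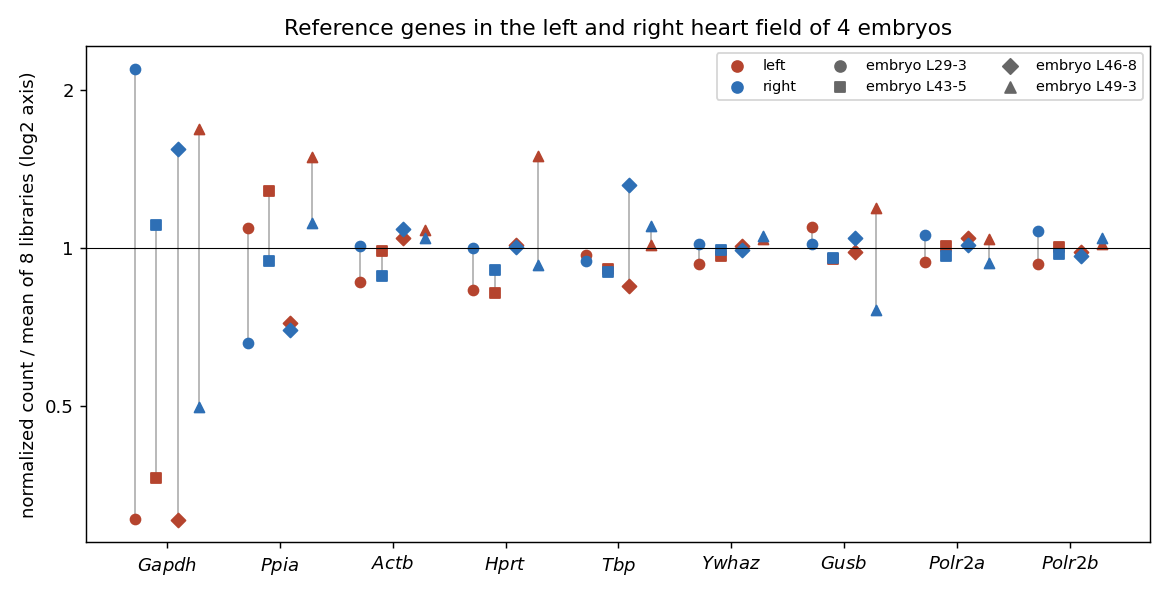
Normalized count of each gene in each library, divided by the gene's mean over 8 libraries, on a log2 axis. Colours mark the side, symbols the embryo, and grey lines join the 2 sides of an embryo. *Gapdh* spans a 7.27-fold range and *Ppia* a 2.26-fold range, whereas *Ywhaz* and *Polr2a* stay within 1.13-fold.

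*Hprt*, *Tbp* and *Gusb* were the genes of low count, with between 38 and 196 reads per library. *Hprt* (chrX:52988137-53021659, plus strand) encodes a purine salvage enzyme. Its normalized counts were 56.7, 56.1, 69.2 and 102 on the left and 68.1, 61.9, 68.5 and 63.2 on the right. The left library of L49-3 was the highest, and without that embryo the CV of 21.5% became 9.51%.

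*Tbp* (chr17:15499888-15528379, plus strand) encodes the TATA-box binding protein. Its counts were 98.1, 91.9, 85.5 and 102 on the left and 95.3, 90.7, 133 and 111 on the right. The right library of L46-8 was the highest, and without that embryo the CV of 15.0% became 7.78%. The exons of *Tbp* share 2582 bases with *Pdcd2* on the opposite strand, so that reads of the 2 genes cannot be told apart there unless the strand was used in counting, which is not given in the sources used here. *Gapdh* shares 68 such bases with *Iffo1*.

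*Gusb* (chr5:129989011-130003049, minus strand) encodes the lysosomal enzyme beta-glucuronidase. Its counts were 120.0, 104, 107 and 130.1 on the left and 111, 105, 114 and 83.1 on the right. Both extremes were the libraries of L49-3, without which the CV of 12.5% became 5.54%. For these 3 genes counting error alone gives a CV of 12.8%, 10.4% and 9.86%. After its removal 17.2%, 10.9% and 7.70% were left, at the 80.2nd, 61.3rd and 46.5th percentiles of all genes tested. The value of *Gusb* is below the 8.51% of *Actb*. Differences between single libraries were not tested.

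*Gapdh* and *Ppia* were the genes with the largest spread. *Gapdh* (chr6:125161715-125166467, minus strand) encodes the glycolytic enzyme glyceraldehyde-3-phosphate dehydrogenase. Its counts were 91.6, 109.5, 91.2 and 508 on the left and 662, 333, 464 and 149.6 on the right. Each embryo had one low and one high library. The low library was the left one in L29-3, L43-5 and L46-8 and the right one in L49-3, and the sides therefore overlapped. The CV was 74.1%, against 6.26% from counting error, and 13 of the 9744 genes tested had a higher one.

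*Ppia* (chr11:6415443-6419817, plus strand) encodes cyclophilin A, a prolyl isomerase that assists protein folding. Its counts were 1165, 1376, 768 and 1595 on the left and 704, 1009.5, 747 and 1193 on the right. The left library was the higher one in all 4 embryos, although the 2 sides overlapped because embryos differed as well. The CV was 30.1%, at the 90.4th percentile of all genes, against 3.18% from counting error.

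Over all 9744 genes the median CV was 14.2%, and 4 of the 8 reference genes lay below it. The median CV of the 8 was 13.8%. Since low counts alone raise a CV, the same was read after removal of counting error, when the median was 9.68% for the reference genes and 8.45% for all genes tested.

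**Figure D2:**
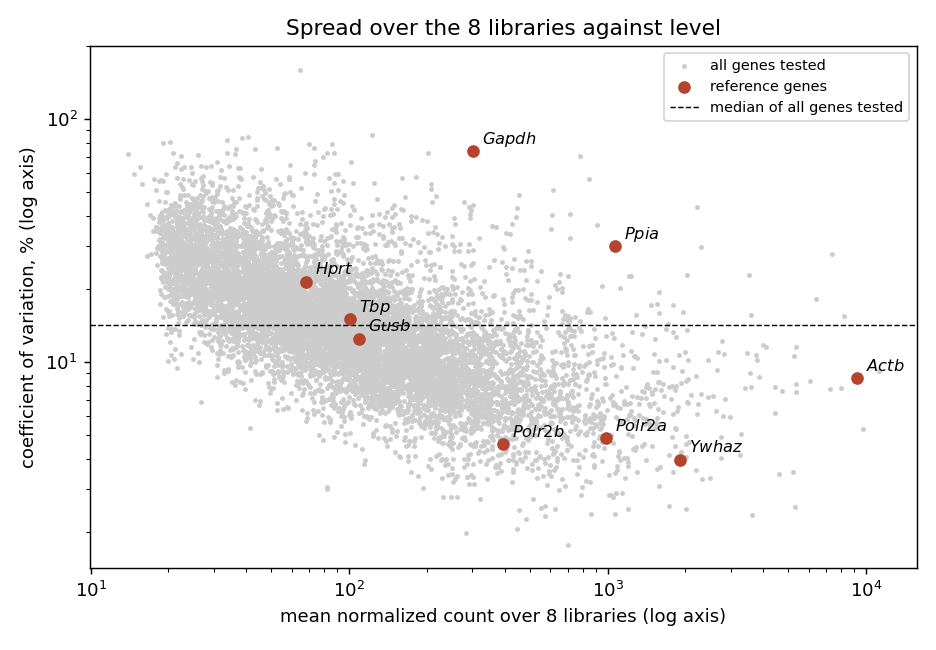
Coefficient of variation over the 8 libraries against mean normalized count, both on log axes, for the reference genes (red) and all 9744 genes tested (grey), with the median CV of all genes as a dashed line. *Gapdh*, at 74.1%, and *Ppia*, at 30.1%, sit above genes of similar count, and *Ywhaz*, *Polr2a* and *Polr2b* near the lower edge.

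The 2 sides were then compared within embryos, with edgeR's quasi-likelihood test, the embryo as a block and Benjamini-Hochberg adjustment over all 9744 genes. None of the 8 genes passed an adjusted p under 0.05, nor did any with DESeq2 or limma-voom, and 0.0103% of all genes did with edgeR. *Gapdh* and *Ppia* were the 2 of the 8 that met the looser rule of a 1.2-fold difference together with an unadjusted p up to 0.05, as did 3.05% of all genes.

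*Ppia* had a mean of 1226 ± 352 in left libraries and 914 ± 230 in right ones (SD, n = 4 embryos). The fitted log2 ratio of left to right was 0.41, with a standard error of 0.09 and a 95% interval from 0.21 to 0.61, and edgeR's p was 0.000811 before and 0.791 after adjustment. The ratios of single embryos were 0.73, 0.45, 0.03 and 0.41, so the difference in L46-8 was close to 0. Without L46-8 the log2 ratio was 0.53 and the adjusted p 0.0385, where 5 of all 9744 genes passed.

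*Gapdh* had a mean of 200.03 ± 205 in left libraries and 402 ± 216 in right ones. The fitted log2 ratio was -1.36 with a standard error of 0.51 and a 95% interval from -2.47 to -0.24, and edgeR's p was 0.0215 before and 0.987 after adjustment. Single embryos gave -2.84, -1.60, -2.35 and 1.75. Without L49-3 the ratio was -2.25 and edgeR's adjusted p 0.0016, where 2 of all 9744 genes passed. Without L29-3, L43-5 or L46-8 in turn the ratio was -0.84, -1.26 and -1.03, and edgeR's unadjusted p was 0.132, 0.0674 and 0.0840, so that the unadjusted call was lost without any of these 3 embryos.

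For the other 6 genes the log2 ratios lay between -0.18, for *Tbp*, and 0.13, for *Gusb*. Their 95% intervals all included 0 and set the size of a difference that remains possible. These intervals ran from -0.16 to 0.11 for *Actb*, from -0.16 to 0.08 for *Ywhaz* and from -0.13 to 0.16 for *Polr2a*. They were wider for the genes of low count, from -0.33 to 0.41 for *Hprt*, from -0.48 to 0.13 for *Tbp* and from -0.16 to 0.41 for *Gusb*. A fold of 1.2 is thus outside the interval for *Actb*, *Ywhaz* and *Polr2a* but inside it for *Hprt*, *Tbp* and *Gusb*. *Polr2b* had a log2 ratio of -0.04, with an interval from -0.20 to 0.11. The median absolute log2 ratio was 0.08 for the 8 genes and 0.09 for all genes tested.

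**Figure D3:**
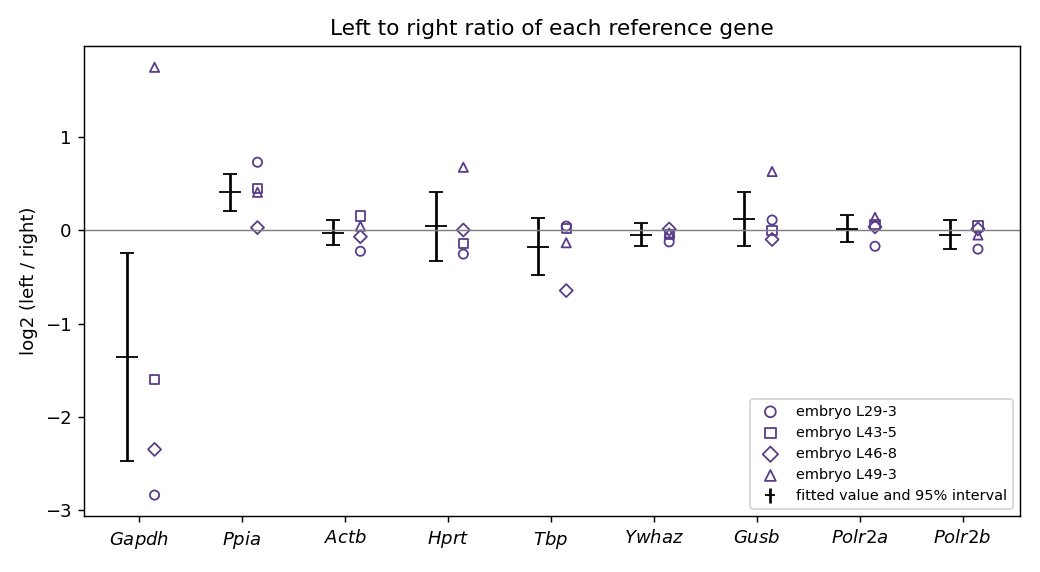
Log2 ratio of left to right for each gene. Black bars give the fitted value with its 95% interval, and open symbols the ratio in each of the 4 embryos, from TMM-normalized CPM. The intervals of *Actb*, *Ywhaz*, *Polr2a* and *Polr2b* are narrow and include 0, those of *Ppia* and *Gapdh* exclude 0 before adjustment, and *Gapdh* in L49-3 lies opposite to the other 3 embryos.

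Differences between embryos were tested in the same fit, over both sides. None of the 8 genes passed an adjusted p under 0.05 with edgeR, where 0.174% of all genes did. *Ppia* was the one with an unadjusted p under 0.05, as were 974 of all 9744 genes, and DESeq2 called it with an adjusted p of 0.000219, as it did 46 of all genes, whereas limma-voom called none of the 8. The means of its 2 libraries were 935, 1193, 758 and 1394 for the 4 embryos, and edgeR's p was 0.000132 before and 0.0559 after adjustment. Without L29-3, L43-5 or L46-8 in turn, edgeR's adjusted p was 0.0195, 0.0423 and 0.0158, and without L49-3 it was 0.853. The other 7 genes had adjusted p-values from 0.533 to 0.972. The SD of the 4 embryo means on the log2 scale was 0.03 for *Polr2a* and 0.05 for *Ywhaz*, against 0.39 for *Ppia* and a median of 0.14 over all genes tested.

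Reads that fit several genes bear on how these rows are read. Genes were called near-identical when 100 or more bases of the reference gene's coding sequence matched them at 90% identity or above. *Gapdh* had 167 of them among the rows of the table, of which 162 were processed pseudogenes and 149 had reads. *Ppia* had 29, 27 of them processed pseudogenes, *Actb* had 3 and *Ywhaz* had 2. *Hprt*, *Tbp*, *Gusb* and *Polr2a* had 0.

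Exact sharing was measured over windows of 130 bases, the read length. All 870 windows of the *Gapdh* coding sequence and all 363 of *Ppia* occurred letter for letter in the transcript of at least one other gene. For *Ywhaz* it was 479 of 606 windows, or 79.0%, and for *Actb* 0 of 996. *Hprt*, *Tbp*, *Gusb*, *Polr2a* and *Polr2b* had 0 shared windows as well. Over a whole transcript, untranslated parts included, the shared windows were 75.2% for *Gapdh*, 35.9% for *Ppia* and 15.2% for *Ywhaz*. How reads with several matches were counted is not given in the sources used here. The rows of *Gapdh*, *Ppia* and *Ywhaz* are therefore uncertain, to an extent that was not measured.

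The copies of *Gapdh* held more reads than *Gapdh* itself. Summed over the 8 libraries, *Gapdh* had 2336 reads and its near-identical genes 13071, led by *Gm5559* with 1258, *Peli2* with 863 and *Gm7336* with 721. *Peli2* is a protein-coding gene that holds a stretch of 90.8% identity with *Gapdh*, so that its reads need not come from that stretch. *Gapdh* held between 6.20% and 8.62% of the joint reads in the 4 libraries in which it was low and between 15.7% and 29.9% in the 4 in which it was high. The reads of the near-identical genes ranged from 1252 to 1885 per library, a 1.51-fold range, whereas the total counts ranged 3.07-fold.

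For *Ppia* the near-identical genes held 8766 reads and *Ppia* 9290. *Gm10123*, the copy with identical letters, was followed by *Gm13493* and by *Gclm*, a protein-coding gene with a stretch of 99.6% identity. *Ppia* held between 36.7% and 58.6% of the joint reads. Within every embryo this share was higher in the left library, at 58.0%, 58.6%, 45% and 57.2% against 39.2%, 54.0%, 36.7% and 47.2% in the right one. For *Ywhaz* the 2 copies, *Gm4202* and *Gm14287*, held 576 reads, 3.50% of its own.

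With the reads of the near-identical genes added to each parent, the spread of both rows was smaller. The CV of *Gapdh* became 38.6% and that of *Ppia* 17.9%. The log2 ratio of left to right became -0.35 for *Gapdh*, with an unadjusted p of 0.0664 in edgeR, and 0.09 for *Ppia*, with 0.282. The adjusted p of both was 0.987, and none of the 8 genes then met the looser rule. The near-identical genes of *Ppia* had log2 ratios of -0.36, 0.18, -0.47 and -0.17, lower on the left in 3 of 4 embryos. The sum still differed between libraries, since for *Gapdh* it lay between 1271 and 3237 normalized counts and its higher values were in L29-3 right, L46-8 right and both libraries of L49-3. Those 4 libraries also had the lowest total counts, and the part of the total count in this was not tested.

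**Figure D4:**
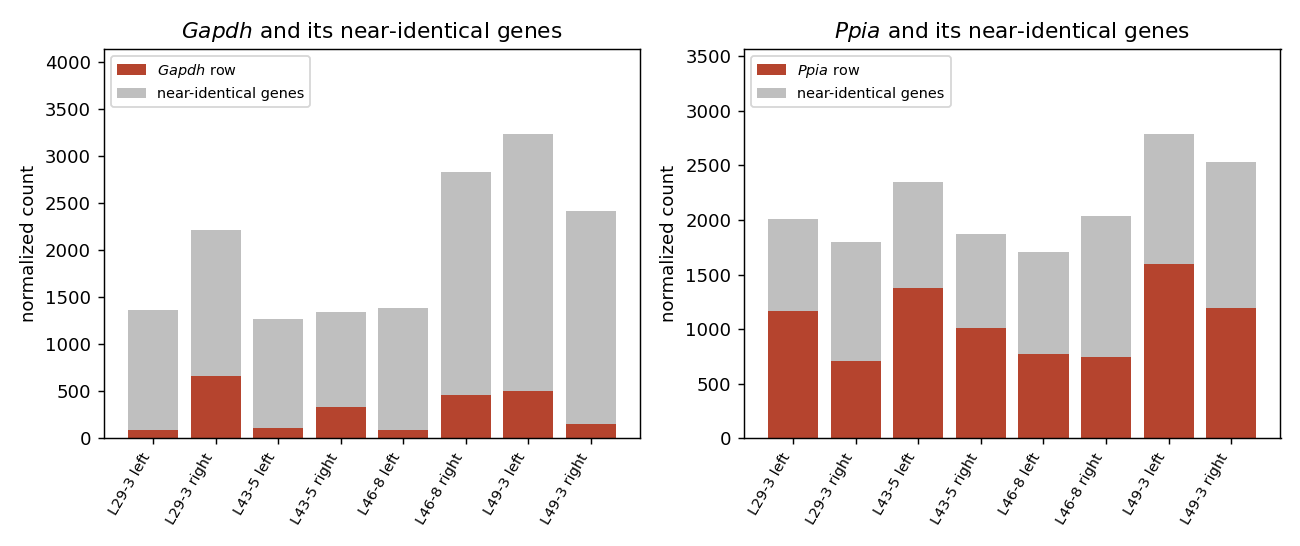
Normalized count of *Gapdh* (left panel) and *Ppia* (right panel), in red, with the summed normalized count of their near-identical genes stacked in grey, for each library. *Gapdh* is the smaller part of every bar, at 6.20% to 29.9%, whereas *Ppia* holds 36.7% to 58.6%.

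Ratios between reference genes need no library normalization. For each pair, the SD over the 8 libraries of the log2 ratio of their counts was taken, and each gene was described by the mean over its 7 partners. That mean was 0.35 for *Ywhaz*, *Polr2a* and *Actb*, 0.39 for *Gusb*, 0.40 for *Hprt*, 0.41 for *Tbp*, 0.60 for *Ppia* and 1.17 for *Gapdh*. The first 3 values are nearly equal, and *Actb* came first when L29-3 or L43-5 was left out. The tightest pairs were *Ywhaz* and *Polr2a*, with an SD of 0.08, *Actb* and *Ywhaz*, with 0.10, and *Actb* and *Polr2a*, with 0.10. The widest was *Gapdh* and *Ppia*, with 1.37, whose log2 ratio ran from -3.67 to -0.09.

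Removing the gene with the largest mean at each step took out *Gapdh*, *Ppia*, *Hprt*, *Gusb*, *Tbp* and *Actb* in this order and left *Polr2a* and *Ywhaz*. Without *Gapdh* and *Ppia*, the means of the 6 genes lay between 0.16 for *Polr2a* and 0.25 for *Hprt*. With *Polr2b* added to these 6, it had a mean of 0.16, after *Ywhaz* and *Polr2a* at 0.15 each.

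**Figure D5:**
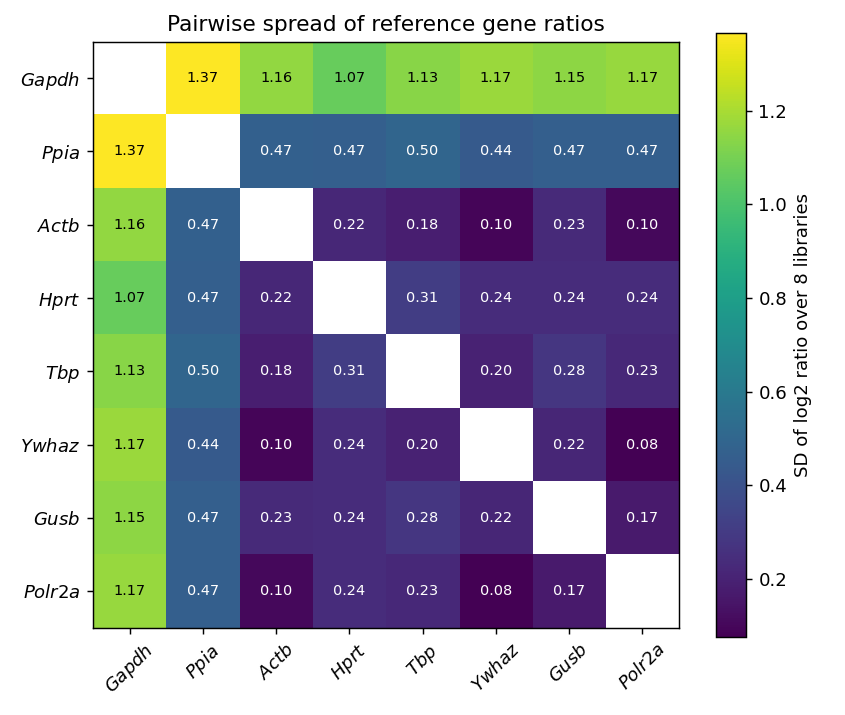
SD over the 8 libraries of the log2 ratio of counts for each pair of reference genes, by colour and number. The rows of *Gapdh*, from 1.07 to 1.37, and of *Ppia* stand out, and the lowest value, 0.08, is that of *Ywhaz* and *Polr2a*.

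The relatives of each reference gene were read from lists of its family or pathway. Over 9 lists with 80 different genes tested, none passed an adjusted p under 0.05 between sides in edgeR, DESeq2 or limma-voom. None met the looser rule in edgeR either, which 3.05% of all genes did. That gene was *Polr2f*, a subunit shared by the nuclear RNA polymerases, with a log2 ratio of -0.24, lower on the left in 4 of 4 embryos (edgeR adjusted p = 0.987).

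The other 13 enzymes of glycolysis, the pathway of *Gapdh*, had a median CV of 9.39%, and 11 of 13 lay below the median of all genes. The smallest unadjusted p-values were those of *Pfkp*, a phosphofructokinase, with a log2 ratio of -0.26, and *Hk1*, a hexokinase, with 0.20. The median log2 ratio of the list was 0.00, against 0.00 for all genes tested, and its 13 ratios ran from -0.26 to 0.20, beside the -1.36 of the *Gapdh* row.

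Of the 7 other cyclophilins, 2 had a ratio above 0 and 5 below, with a median of -0.05 and a median CV of 11.9%. *Ppih* and *Ppid*, which had the smallest p-values, stood at 0.16 and -0.09. The 5 other 14-3-3 genes tested had a CV from 3.71% to 9.79%, beside the 3.97% of *Ywhaz*. *Ywhag* had a log2 ratio of 0.11, higher on the left in 4 of 4 embryos, with an unadjusted p of 0.101 in edgeR, and *Ywhaq* one of -0.05.

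Among the actins, *Actg1* had a CV of 9.53% and a log2 ratio of 0.04. The 3 muscle actins tested had a CV from 40.5% to 56.8%, with *Acta1* at a log2 ratio of 0.04, in libraries whose summed cardiomyocyte markers ranged 7.50-fold. Their part in this spread was not tested.

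The 11 other subunits of RNA polymerase II had a median CV of 14.1% and a median log2 ratio of -0.01. *Polr2d* was at -0.19. The 13 genes tested of the list for TFIID, the complex that holds TBP, were TAF subunits and the TBP-like factor *Tbpl1*. They had a median CV of 11.7%, with *Taf7* at a log2 ratio of -0.17 and *Taf10* at -0.21. The 4 purine salvage genes tested, relatives of *Hprt* by pathway, had a CV from 8.04% to 12.4%, with *Prps1* at a log2 ratio of -0.19 and *Aprt* at -0.15. The 9 lysosomal hydrolases tested beside *Gusb* had a median CV of 21.8%, with *Glb1* at a log2 ratio of -0.31.

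A further 16 reference genes in common use had a CV from 4.62%, that of *Polr2b*, to 13.2%, and all 16 lay below the median of all genes. *Cyc1* had the smallest p-value, with a log2 ratio of -0.18.

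The genes whose pattern over the 8 libraries was most like that of a reference gene were taken from the Pearson correlation of log2 TMM-normalized CPM. The 8 libraries come from 4 embryos and share their depth, so r is a description only. The 2 highest among all genes tested are named for each reference gene, and each had between 7 and 25 genes with r above 0.9. *Gapdh* was most like *Scara3*, with r = 0.964, and *Cmtm4*, with 0.960, and *Ppia* most like *Ube2g1*, with 0.970, and *Arl4a*, with 0.940. *Ywhaz* had *Thoc3* at 0.992 and *Tma7* at 0.956, *Polr2a* had *Gprasp2* at 0.942 and *Ly6e* at 0.927, and *Actb* had the pseudogene *Gm18194* at 0.961 and *Ubb* at 0.947. For *Hprt* the genes were *Mitd1*, at 0.982, and *Det1*, at 0.963, for *Tbp* they were *Top1*, at 0.965, and *Rsbn1l*, at 0.951, and for *Gusb* *Foxred1*, at 0.968, and *Smg1*, at 0.949. None of these 16 genes was a near-identical copy of its reference gene.

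How much the choice of reference moves a ratio was read on *Notch3*, a receptor of the Notch pathway. Scaled by DESeq2 size factors, its log2 ratio of left to right was 0.30 ± 0.28 (SD, n = 4 embryos). Relative to a single gene it was 0.35 ± 0.27 for *Ywhaz*, 0.28 ± 0.25 for *Polr2a*, 0.32 ± 0.33 for *Actb* and 0.35 ± 0.31 for *Polr2b*. For the genes of low count it was 0.23 ± 0.21 relative to *Hprt*, 0.48 ± 0.48 to *Tbp* and 0.14 ± 0.19 to *Gusb*. Relative to *Ppia* it was -0.10 ± 0.43, above 0 for 2 of 4 embryos, and relative to *Gapdh* 1.57 ± 1.87, above 0 for 3 of 4. These ratios depended on L49-3. Without it, in 3 embryos, the ratio was 0.18 ± 0.17 by DESeq2 size factors, 0.23 ± 0.16 relative to *Ywhaz*, 0.23 ± 0.24 to *Polr2b*, -0.22 ± 0.44 to *Ppia* and 2.45 ± 0.76 to *Gapdh*. Relative to the other 5 genes it lay between 0.18 for *Gusb* and 0.37 for *Tbp*. This omission was chosen after seeing the data.

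The geometric mean of the 6 genes other than *Gapdh* and *Ppia* gave 0.30 ± 0.21 and that of all 8 gave 0.41 ± 0.27. With 4 embryos an exact permutation test of the signs cannot go below p = 0.125, so none of these ratios could pass 0.05. *Lefty2*, a target of Nodal signaling, had 197 left and 7 right reads in L49-3, the embryo in which *Gapdh* ran opposite to the others. The other 3 embryos had between 65 and 129 left reads and 0 or 1 right reads. The higher side of *Lefty2* was the left one in all 4 embryos.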

How the data were processed

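The deposited values are counts of reads per gene, not normalized, for 48526 genes in 8 libraries of 4 embryos. The authors excluded duplicate reads, aligned paired-end reads of 130 bases to GRCm38 with Hisat2 and counted them with featureCounts. Duplicates were many by their account, and the effect of the exclusion on counts and spread was not tested. Versions, the use of strand and the treatment of reads with several matches are not given in the sources used here. Symbols came from GENCODE vM21 for 48144 rows, and 382 had none.

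The 9744 genes that reached 20 DESeq2-normalized counts in 4 or more libraries were tested with edgeR 4.0.16 in R 4.3.3 (TMM, quasi-likelihood, side and embryo as terms, Benjamini-Hochberg adjustment). limma 3.58.1 (voom) and DESeq2 1.42.0 were alternatives, beside other normalizations and filters, each embryo left out and the reads of near-identical genes added. Left and right libraries of one embryo share an animal and were treated as pairs. Their deviations from the side means had correlations from -0.016 to 0.437. For ratios within an embryo, 0.5 was added to TMM-normalized CPM. Near-identical genes were found with blastn on the GENCODE transcripts. The fits were tested on simulated data.

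The 8 genes and the lists were chosen with earlier results of these data known. The text names these 8, *Polr2b*, in each list the genes with an adjusted p under 0.05 or else the 2 with the smallest p, up to 3 near-identical genes per reference gene, the 2 most correlated genes, and *Notch3* and *Lefty2*. Some genes that the rule covers are not reported here. A few list genes, markers and overlapping genes were named after their values were seen. Total counts from 1147446 to 3520753 set the precision. The intervals of the log2 ratios come from edgeR's fit and include its estimate of variation between libraries, not counting error alone. A count of 0 allows up to 3 reads. The authors' other experiments were not analysed here.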

Additional observations from a re-analysis of the deposited data

Results flagged for a closer look

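In groups of 4 libraries or ratios, a value was singled out when its gap to the nearest of the others was large against the whole range of the group. Of 24 groups examined for the 8 reference genes, 1 met this, where chance gives about 1 in 20. *Gapdh* in the left library of L49-3 had a normalized count of 508, whereas the other 3 left libraries lay between 91.2 and 109.5. The right library of the same embryo, at 149.6, was the lowest of the right libraries. In both libraries of L49-3 the heart field markers *Tbx5* and *Gata4* were lower than in the other embryos and *Isl1* was higher, and their part in this was not tested.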

How the results depend on the processing

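Between sides, the count of reference genes with an adjusted p under 0.05 was 0, and it became 2 with no filter on low counts (*Gapdh* and *Ppia*) and ranged from 0 to 1 with an embryo left out. Of all genes 1 of 9744 passed, against 34 of 23873 with no filter, 2 with DESeq2 and 1 to 5 with an embryo left out. The count by the looser rule, 1.2-fold and an unadjusted p up to 0.05, was 2. It became 1 with DESeq2, 0 with the near-identical genes or the processed pseudogenes added, and 1 without the replicate block, and ranged from 1 to 2 with an embryo left out. Without the block *Gapdh* had a log2 ratio of -1.16 and *Ppia* 0.42, with edgeR p-values of 0.0495 and 0.0639. Between embryos the count was 0, and became 3 with no filter, 1 with DESeq2 and 0 to 1 with an embryo left out. Of all genes 17 passed there, against 641 with no filter, 46 with DESeq2 and 0 to 236 with an embryo left out. The cause was not tested. The lowest mean pairwise SD, 0.35, became 0.22 with near-identical genes added, 0.22 with processed pseudogenes alone, 0.21 without *Gapdh* and 0.16 without *Gapdh* and *Ppia*, and ranged from 0.33 to 0.38 with an embryo left out. The count of near-identical genes, 201, became 90 at 95% identity over 130 bases and 1170 when any part of any transcript was aligned, on either strand. The number of reference genes with a CV under the median of all genes, 4, ranged from 3 to 5. With an embryo left out, log2 ratios near 0 changed sign for *Actb* (-0.081 to 0.047, above 0 without L29-3), *Hprt* (-0.13 to 0.14, below 0 without L49-3) and *Polr2a* (-0.022 to 0.082, below 0 without L43-5 or L49-3). The coding restriction, the processed pseudogenes alone and the set without both genes were chosen after seeing the data. Depth limits *Hprt*, *Tbp* and *Gusb* most.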
